A study of Mus musculus with 15 samples.

Results

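The 9 carbonic anhydrase genes Car1, Car2, Car3, Car4, Car8, Car9, Car12, Car13 and Car14 were followed through the development of the mouse stomach. They were taken by their gene symbols from 44788 symbols in the gene tables, each with 1 entry per table, and all 9 were found at every time point. RNA of whole stomachs of C57BL/6 mice, with no treatment and no genetic change in the labels, was sequenced once at each of 15 time points. The embryonic group held 7 libraries (1 for each day from E12.5 to E18.5), the suckling-age group D1 to W2 held 5 (postnatal days D1, D3 and D5 and weeks W1 and W2), and the group W3 to W8 held 3 (weeks W3, W6 and W8). Levels are in FPKM, a density of sequenced fragments scaled by transcript length and by the number of mapped fragments, which lets genes be compared with each other.

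The study's reporting notes say that stomachs of several embryos were pooled into a sample up to E17.5 and that single stomachs were used later, so pooling changed with age within the embryonic group. The same notes say that stomachs up to W2 were taken without distinction of sex and later ones from males. Sex and age therefore cannot be told apart in the step from D1 to W2 to W3 to W8. The border between W2 and W3 is not given by the labels and is also the border of the study's last RNA phase, which was drawn from these transcriptomes, so the second step is not independent of them. No time point was replicated, so the time points of an age group stood in for replicates, and the spread within a group includes change with age. The error bounds that the authors deposited with each FPKM cover the estimate within 1 library only. The sum of FPKM over all genes ran from 745538 to 1344957, and 12387 to 14686 symbols reached 1 FPKM. The depth relative to the E12.5 library, inferred from the deposited bounds, ran from 0.702 to 1.17. The labelled tissue was checked by the level of a gastric marker. Atp4a, the catalytic subunit of the gastric proton pump, was at 4.29 to 215.7 FPKM in embryos and 1519 to 3289 FPKM from W3 to W8. All 9 parietal cell markers and all 4 surface mucous cell markers differed across the age groups in limma at an adjusted p under 0.01. So did 67.9% of all tested genes, so this count does not bear on the tissue.

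Carbonic anhydrases catalyse the reversible hydration of carbon dioxide to bicarbonate and a proton. In the parietal cells of the stomach this reaction supplies the protons that the H+/K+-ATPase secretes as acid, while the bicarbonate leaves across the basolateral membrane in exchange for chloride, and in surface mucous cells the same reaction feeds the bicarbonate that protects the mucosa. Members differ mainly in where they act. Car1, Car2, Car3 and Car13 are cytosolic enzymes, Car4 is anchored to the outer cell surface by a lipid, Car9, Car12 and Car14 span the membrane with an extracellular catalytic domain, and Car8 is a related protein that has lost the catalytic activity.

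Car2 held most carbonic anhydrase RNA of the stomach from E15.5 on. The cytosolic, highly active enzyme stood at 14.47 FPKM at E12.5, 19.9 at E13.5, 26.5 at E14.5, 40.9 at E15.5, 137.5 at E16.5, 194.1 at E17.5 and 401.3 at E18.5. It rose at every step of the embryonic series, with the largest step of 3.36-fold between E15.5 and E16.5. After birth it was at 284.5 FPKM at D1, 467.6 at D3, 307.9 at D5, 494.4 at W1 and 636.4 at W2, and then at 1045 at W3, 1062 at W6 and 1083 at W8. The deposited bounds of W3, W6 and W8 overlapped each other, whereas the bounds of W2 ended at 663 FPKM. Car2 was therefore level from W3 to W8 in FPKM as deposited, within the error of single libraries. This level course depends on the scaling. The FPKM sum over all genes was highest at W6, at 1344957. Relative to the FPKM sum of each library, Car2 was lower at W6 than at W3 or W8. Median-ratio scaling, used as an alternative, goes the other way. It divides by factors of 0.760 at W3, 0.570 at W6 and 0.678 at W8, which places Car2 highest at W6.

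The mean of Car2 was 119 ± 142 FPKM (SD, n = 7) in embryos, 438 ± 145 (SD, n = 5) from D1 to W2 and 1063 ± 18.7 (SD, n = 3) from W3 to W8. On the scale log2(FPKM + 1), D1 to W2 exceeded the embryonic group by 2.73 ± 0.70 (SE; limma, adjusted p = 0.00446; exact two-sided permutation test, p = 0.00758), although E18.5 lay above D1 and D5. Leaving out E14.5, D3, W1 or W2 moved this adjusted p to between 0.0103 and 0.0135. From D1 to W2 to W3 to W8 the difference was 1.34 ± 0.87 (SE; limma, adjusted p = 0.202), with an exact permutation p of 0.0357, which is the smallest that 5 against 3 libraries allow. The 3 later libraries all lay above the 5 earlier ones.

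**Figure D1:**
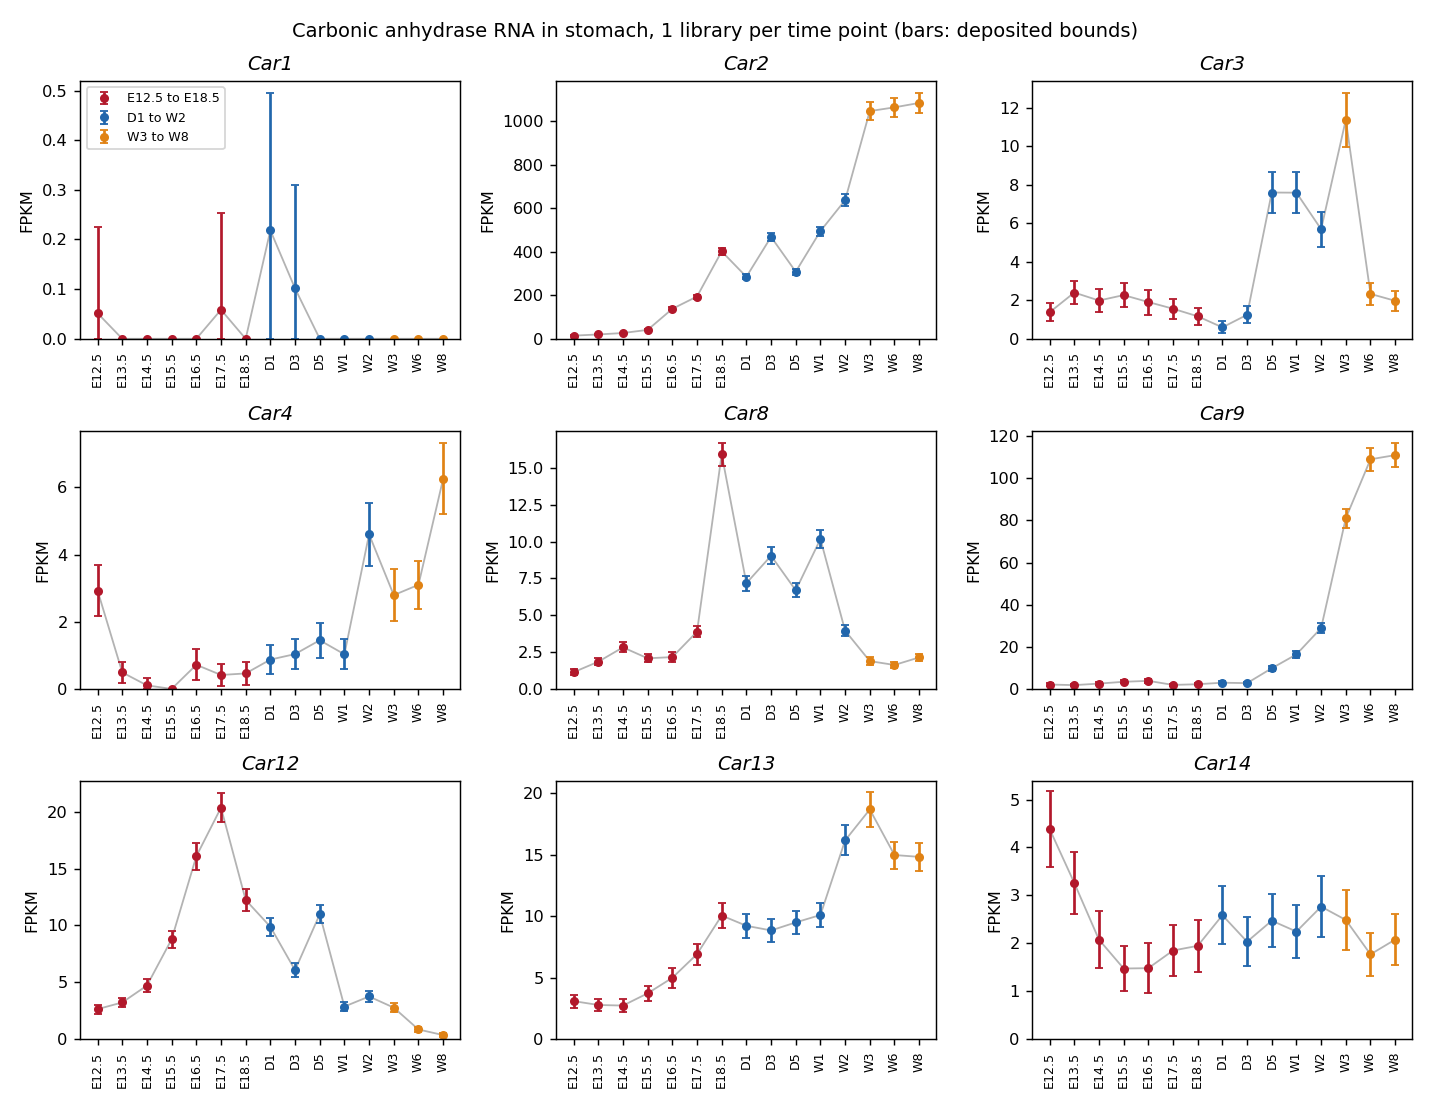
FPKM of the 9 genes (vertical axes, each gene on its own scale) at the 15 time points (horizontal axes), 1 library per point, with bars for the deposited lower and upper bounds and colours for the age groups. Car2 climbed from 14.47 to 1083 FPKM and Car9 from 1.80 to 111 FPKM, Car12 and Car8 were highest at E17.5 and E18.5, and Car1 never exceeded 0.218 FPKM.

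As a share of the summed FPKM of all 16 carbonic anhydrase symbols in the tables, Car2 made up 33.0% at E12.5, 55.5% at E15.5, 76.61% at E16.5 and 88.3% at E18.5, and between 83.8% and 92.1% at every later time point. The family sum grew from 43.8 FPKM at E12.5 to 1236 at W8. Without Car2, the family summed to 27.5 to 52.9 FPKM in embryos and to 154 FPKM at W8, so the remaining 15 genes changed far less as a total than Car2 did. In whole-organ RNA, a larger number of cells that express a gene and more RNA per cell cannot be told apart.

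**Figure D2:**
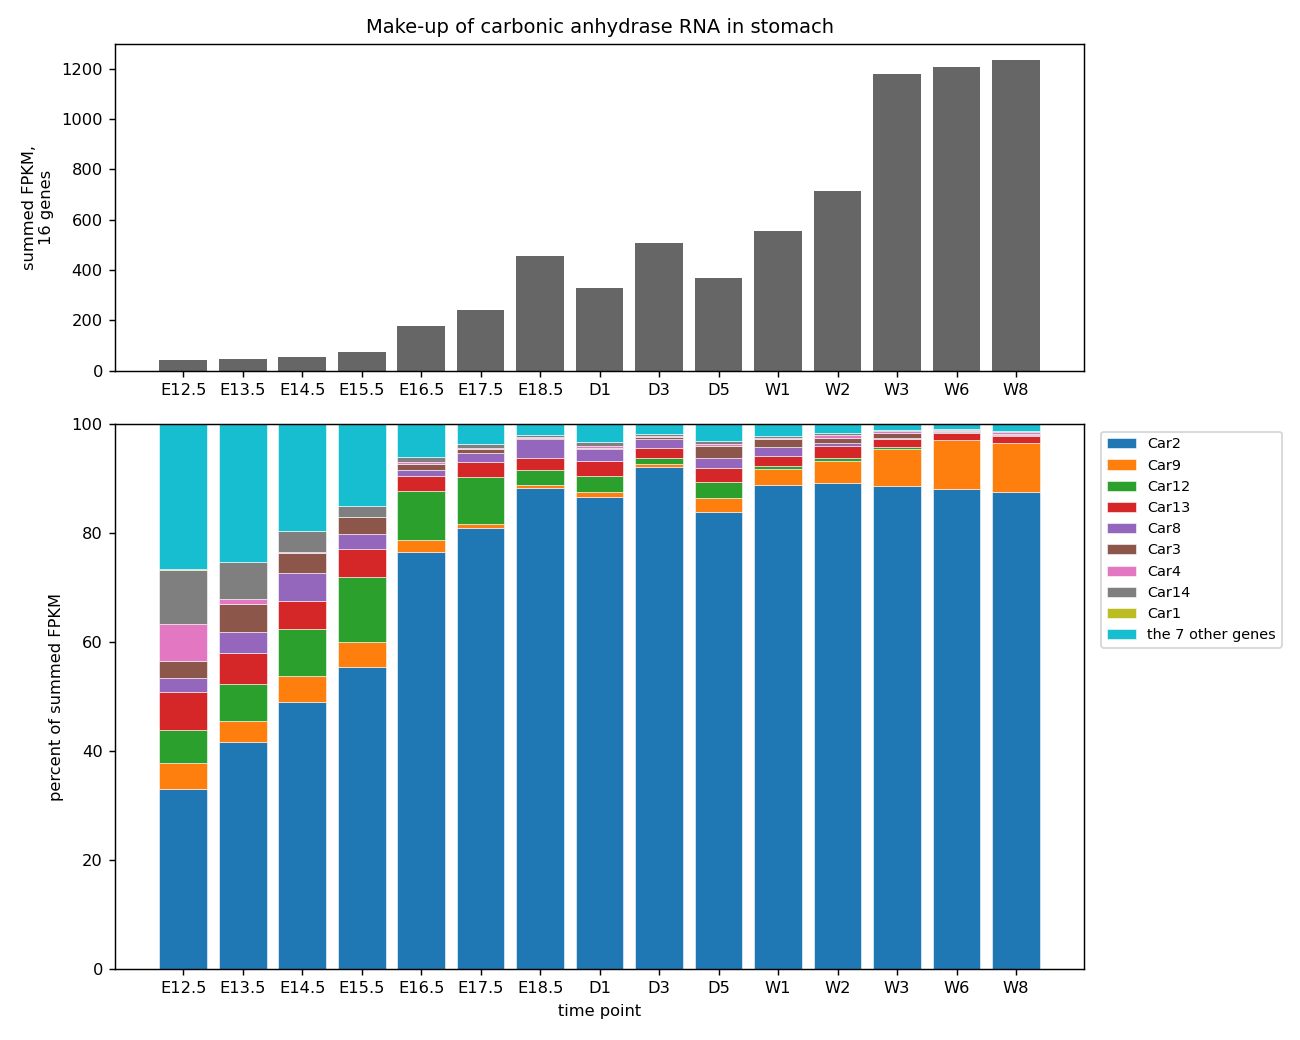
Upper panel: summed FPKM of the 16 carbonic anhydrase symbols (bars) at each time point. Lower panel: percent of that sum held by each of the 9 genes and by the 7 other symbols together. Car2 filled 33.0% of the sum at E12.5 and 87.6% at W8, and Car9 grew from 0.4933% at E18.5 to 8.98% at W8.

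Car13, a second cytosolic enzyme, kept a pattern close to that of Car2 at a lower level. It was at 2.73 to 10.1 FPKM in embryos with a median of 3.72, then at 9.22 at D1, 8.85 at D3, 9.50 at D5, 10.1 at W1, 16.2 at W2, 18.7 at W3, 15.0 at W6 and 14.8 at W8. E18.5 already stood at the level of D1 to W1, and W2 stood with the later libraries. The difference between D1 to W2 and the embryonic group was 1.08 ± 0.26 on the log2 scale (SE; limma, adjusted p = 0.00290; exact permutation p = 0.0101), and without W2 it was 0.93 with an adjusted p of 0.0103. The step to W3 to W8 was 0.57 ± 0.32 (SE; limma, adjusted p = 0.143), with a 95% interval from -0.11 to 1.25, and was 1.13 and 0.99 (limma, adjusted p = 0.0198 and 0.0342) under median-ratio scaling and quantile normalization.

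Car2 and Car13 lie in a cluster of 259 kb on chromosome 3 together with Car1 and Car3. In GRCm38, with positions counted from 1, the tables place Car13 at chr3:14641727-14663002, Car1 at chr3:14766214-14808365, Car3 at chr3:14863538-14872381 and Car2 at chr3:14886278-14900770. Over the 15 time points, Pearson's r on log2(FPKM + 1) was 0.970 between Car2 and Car13 at the 2 ends of the cluster, 0.344 between the neighbours Car2 and Car3, and 0.424 between Car3 and Car13. These values describe 15 libraries that the genes share and carry no test.

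Car1, an enzyme known from red blood cells and the colon, was close to the limit of measurement. It was listed at 0 in 11 of the 15 libraries, at 0.0515 FPKM at E12.5, 0.0585 at E17.5, 0.218 at D1 and 0.102 at D3, and each lower bound was 0. Car1 was therefore not tested, and 8 of the 9 genes passed the limit of 1 FPKM in at least 1 library. Erythroid markers were high in the same organ: the 12 of 14 listed symbols found in the tables summed to 3130 to 8060 FPKM in embryos, 267 to 2661 from D1 to W2 and 294 to 675 from W3 to W8. In the first step 3 of the 9 tested were lower and 0 higher, against 30.6% and 10.8% of all tested genes. Within the embryonic group the erythroid sum was highest at E12.5, where Car2 was lowest, and lowest at E18.5, where Car2 was highest. The sum mixes globins of unlike spread: in embryos Hbb-y ran from 2.26 to 3298 FPKM and Hba-a1 from 1669 to 3576. The part of red blood cells in the Car1 and Car2 values was not tested.

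Car3 showed a transient rise that the age groups did not capture. This cytosolic enzyme of low activity, abundant in muscle and fat, was at 1.17 to 2.40 FPKM in embryos with a median of 1.91, at 0.593 at D1 and 1.25 at D3, and then at 7.59 at D5, 7.59 at W1, 5.69 at W2 and 11.4 at W3. It was back at 2.33 at W6 and 1.97 at W8. The step from D3 to D5 was 6.09-fold, the fall from W3 to W6 was 4.88-fold, and the deposited bounds did not overlap at either step.

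Since high and low libraries fell into the same groups, neither difference of Car3 passed the test, at 0.68 ± 0.44 (SE; limma, adjusted p = 0.196) and 0.15 ± 0.55 (SE; limma, adjusted p = 0.830, 95% interval from -1.03 to 1.34). The second turned negative without D1, D3 or W3. Adipocyte markers are given beside Car3. Their summed FPKM was 105.2 at D1, 275 at D3 and 262 at D5. At these ages Car3 was at 0.593, 1.25 and 7.59 FPKM. Fabp4 alone made up most of the sum, with means of 53.1 FPKM in embryos, 212 from D1 to W2 and 117 from W3 to W8. The sum was 325 FPKM at W1 and 207 at W3, where Car3 was highest. Of 8 listed, 6 were tested and 3 (Cidec, Fabp4 and Plin4) were higher from D1 to W2 than in embryos, against 10.8% of all tested genes. None passed the second step, in which 28.9% of all tested genes were lower and 2.57% higher. The list summed to 15.48 to 97.2 FPKM in embryos, 105.2 to 325 from D1 to W2 and 102 to 207 from W3 to W8. Cidec, a lipid droplet protein, was listed at 0 in at least 1 embryonic library. Of the skeletal muscle list 8 of 10 were tested. In the first step 3 were higher, against 10.8% of all tested genes, and in the second 2 were lower, against 28.9%. This list summed to 65.7 to 142 FPKM from D1 to W2 and 16.01 to 106 from W3 to W8. The part of either tissue in the Car3 values was not tested.

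Among the membrane-bound enzymes, Car9 and Car12 exchanged places. Car9 stayed at 1.80 to 3.84 FPKM in embryos with a median of 2.24, and was at 2.95 at D1, 2.75 at D3, 9.81 at D5, 16.4 at W1, 28.9 at W2, 81.1 at W3, 109 at W6 and 111 at W8. Its level was flat until D3, and from D5 on every library lay above all earlier ones. Car12 took the other course, at 2.63 FPKM at E12.5, 3.22 at E13.5, 4.71 at E14.5, 8.78 at E15.5, 16.1 at E16.5, 20.4 at E17.5 and 12.2 at E18.5, and then at 9.88 at D1, 6.06 at D3, 10.98 at D5, 2.86 at W1, 3.75 at W2, 2.76 at W3, 0.843 at W6 and 0.350 at W8. It was lowest in the oldest stomach, 58.2-fold under its peak. The summed forestomach squamous markers were also lowest in this W8 library, at 19.4 FPKM against 1295 at W6. Their part in the Car12 value was not tested.

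The ratio of Car9 to Car12 was 0.79 at E12.5, 0.0932 at E17.5, 0.89 at D5, 5.74 at W1, 29.3 at W3 and 317 at W8. The W8 ratio comes from the library with the low squamous sum. The order of these genes therefore turned between D5 and W1, and the deposited bounds of the pair overlapped at E12.5 and D5 but not at W1.

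For Car9, D1 to W2 exceeded the embryonic group by 1.47 ± 0.43 on the log2 scale (SE; limma, adjusted p = 0.00913; exact permutation p = 0.0253). This call was lost in 17 of 23 alternative settings, among them the omission of any embryonic library, of D5, W1 or W2, or of any library from W3 to W8, with adjusted p-values between 0.0102 and 0.0381. The difference was between 1.06 and 1.81 over all 23. The step from D1 to W2 to W3 to W8 was larger, at 3.38 ± 0.53 (SE; limma, adjusted p = 0.000453; exact permutation p = 0.0357), and passed in all 23 settings. The mean rose 8.25-fold, from 12.2 ± 10.9 FPKM (SD, n = 5) to 100 ± 16.8 (SD, n = 3), and the groups did not overlap.

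For Car12, the groups around birth overlapped widely and differed by -0.33 ± 0.47 (SE; limma, adjusted p = 0.555, 95% interval from -1.34 to 0.67). From W3 to W8 all 3 libraries lay below those of D1 to W2, at a mean of 1.32 ± 1.28 FPKM (SD, n = 3) against 6.70 ± 3.62 (SD, n = 5). The difference of -1.73 ± 0.59 did not reach the threshold of 0.01 (SE; limma, adjusted p = 0.0239; exact permutation p = 0.0357). Over 23 alternative settings it ran from -2.49 to -1.25 (limma, adjusted p between 0.0121 and 0.122).

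In GRCm38 the tables place Car9 at chr4:43507026-43513725 and Car12 at chr9:66713680-66766845, and the remaining genes Car14 at chr3:95897768-95905133, Car8 at chr4:8141493-8239041 and Car4 at chr11:84957754-84966054.

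The promoter windows of this pair are shown because the order of the 2 genes turned with age and because Car9 is a textbook target of the hypoxia-inducible factors, whose binding sites contain the letters ACGTG or GCGTG. Of the 9 genes, Car4, Car9, Car12 and Car14 had an entry among the RefSeq promoters (GRCm38.p6). Each line gives the 100 bases before the start site and the first 30 from it, 5′ to 3′ on the strand of the gene. Capitals mark CACGT, which reads ACGTG on the opposite strand.
Car9, chr4:43506926-43507055, plus strand: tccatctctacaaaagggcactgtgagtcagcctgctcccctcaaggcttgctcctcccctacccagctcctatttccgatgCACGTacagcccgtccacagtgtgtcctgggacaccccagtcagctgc
Car12, chr9:66713586-66713715, plus strand: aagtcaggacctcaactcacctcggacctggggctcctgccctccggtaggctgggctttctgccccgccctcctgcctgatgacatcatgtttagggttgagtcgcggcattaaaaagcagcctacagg

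In the full window of 250 bases before and 50 after the start, searched on both strands, Car9 held ACGTG 1 time, at bases -18 to -14 before the start, and no GCGTG. Car12 held neither. Car14 held ACGTG 1 time at -7 to -3 and Car4 held it 1 time at 3 to 7 after the start, counting the start as 1. Of 32851 RefSeq promoters of this length, 19.6% held ACGTG and 43.8% held ACGTG or GCGTG, so the letters are common. A match of letters describes the sequence and was not tested for binding.

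Other genes of the hypoxia response are given beside Car9, and the part of hypoxia in the Car9 values was not tested. Of 14 listed, all tested, 8 were lower and 1 was higher from D1 to W2 than in embryos, against 30.6% and 10.8% of all tested genes. In the step to W3 to W8, 2 were lower and 0 higher, against 28.9% and 2.57%. The medians of the list in the 2 steps were -0.61 and -0.37 on the log2 scale. All tested genes had medians of -0.22 and -0.42. P4ha1, a collagen prolyl hydroxylase, fell by 1.23 and 0.70 in the 2 steps (limma, adjusted p = 9.19e-05 and 0.00661). Slc2a1, the glucose transporter GLUT1, fell by 1.22 in the first (adjusted p = 0.000120), and Adm, the peptide hormone adrenomedullin, rose by 1.31 (adjusted p = 0.000401).

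Car14, the third transmembrane enzyme, was the flattest of the 8 tested genes, with a highest value 2.98-fold above its lowest. It was at 4.39 FPKM at E12.5 and 3.26 at E13.5, and between 1.47 and 2.77 at all later time points. Neither difference passed the test, at 0.08 ± 0.18 around birth (SE; limma, adjusted p = 0.705, 95% interval from -0.29 to 0.45) and -0.14 ± 0.22 at the later step (SE; limma, adjusted p = 0.606, 95% interval from -0.61 to 0.33). The second value was positive, 0.28 and 0.49, under median-ratio scaling and quantile normalization.

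Car4, the lipid-anchored enzyme known from capillary endothelium and several epithelia, was low and uneven. It was at 2.93 FPKM at E12.5, 0.491 at E13.5, 0.106 at E14.5, listed at 0 at E15.5, and at 0.718, 0.415 and 0.461 at E16.5, E17.5 and E18.5. It then reached 0.873 at D1, 1.04 at D3, 1.45 at D5, 1.03 at W1, 4.60 at W2, 2.79 at W3, 3.10 at W6 and 6.25 at W8. W2 lay with the later libraries and E12.5 far above the other embryonic ones.

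Car4 differed across the 3 age groups as a whole (limma F test, adjusted p = 0.00542), a call that was lost without E13.5, E14.5, E15.5, E17.5, W6 or W8 (adjusted p of 0.0300 without W8 and between 0.010004 and 0.0125 without the others). Neither step alone passed, at 0.70 ± 0.34 (SE; limma, adjusted p = 0.0867) and 0.93 ± 0.42 (SE; limma, adjusted p = 0.0776). The second was 1.41 and 1.57 (limma, adjusted p = 0.0155 and 0.0153) under median-ratio scaling and quantile normalization. Of the blood vessel endothelium markers, all 5 tested, 2 were lower in the first step and 4 in the second, against 30.6% and 28.9% of all tested genes. With 0 higher, the sums were 62.9 to 95.7 FPKM in embryos, 48.4 to 83.1 from D1 to W2 and 19.3 to 33.7 from W3 to W8. The part of endothelium in the Car4 values was not tested.

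Car8, the relative without catalytic activity, known for binding the inositol trisphosphate receptor in Purkinje cells, was highest around birth. It was at 1.13 to 3.88 FPKM from E12.5 to E17.5, at 15.9 at E18.5, and at 7.17 at D1, 9.03 at D3, 6.69 at D5, 10.2 at W1 and 3.95 at W2. It returned to 1.89 at W3, 1.63 at W6 and 2.14 at W8. The step from E17.5 to E18.5 was 4.10-fold, and E18.5 was the only embryonic library inside or above the range of D1 to W1.

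The differences of Car8 were 0.99 ± 0.40 around birth (SE; limma, adjusted p = 0.0439) and -1.49 ± 0.50 at the later step (SE; limma, adjusted p = 0.0217; exact permutation p = 0.0357), short of the threshold of 0.01. Both calls turned on E18.5: without it the differences of 1.33 and -1.49 had adjusted p-values of 0.000232 and 0.000778 (limma). E18.5 is not part of the later step, whose difference stayed at -1.49. It bore on that call through the spread, which the fit estimates jointly over all 15 libraries. From W3 to W8 all 3 libraries lay below all 5 of D1 to W2, with a mean 3.93-fold lower. Under median-ratio scaling and quantile normalization the later difference was -1.08 and -0.94 (limma, adjusted p = 0.111 and 0.181).

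**Figure D3:**
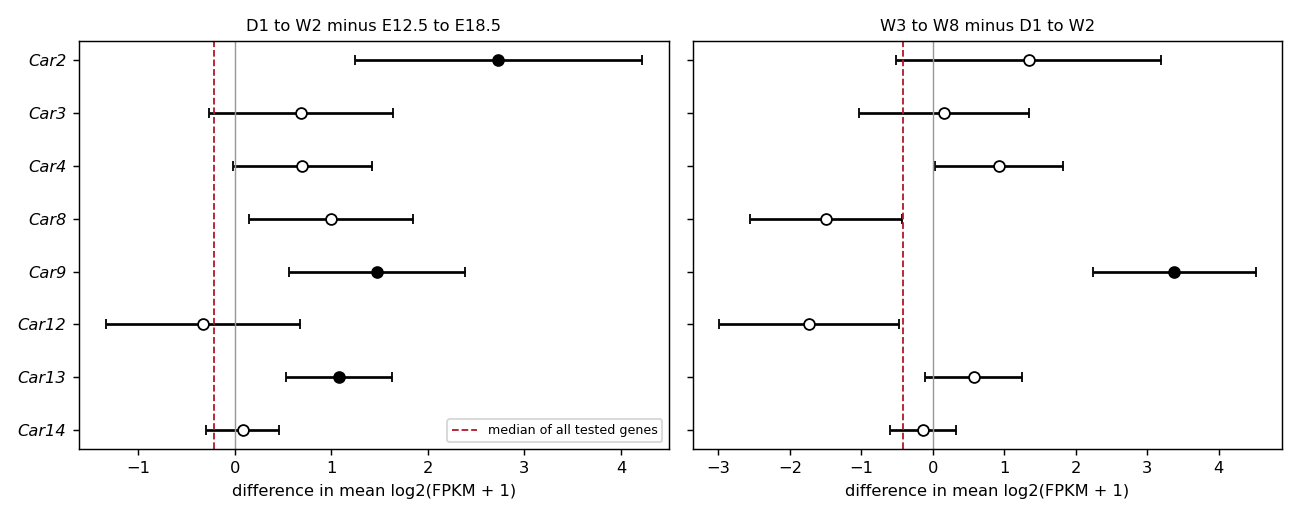
Difference in mean log2(FPKM + 1) between age groups (horizontal axes) for the 8 tested genes, with bars for the 95% interval of the limma fit; filled points had an adjusted p under 0.01, and dashed lines mark the median of all tested genes (-0.22 and -0.42). Car2, Car9 and Car13 were filled in the left panel and Car9 alone in the right panel.

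Across the 3 age groups, 4 of the 8 tested genes (Car2, Car4, Car9 and Car13) differed at an adjusted p under 0.01 in the limma F test, while 67.9% of all 16902 tested genes did. Car12 missed this threshold (adjusted p = 0.0101) and passed it in 6 of 24 alternative settings, among them the omission of E12.5, E13.5, W1 or W3 (0.00416 to 0.00893). Under median-ratio scaling and quantile normalization its adjusted p in this test was 0.0557 and 0.0625. In the main fit Car8 had 0.0251, Car3 0.219 and Car14 0.814. In the step around birth 3 of 8 were higher (Car2, Car9 and Car13), against 10.8% of all tested genes, and 0 were lower, against 30.6%. In the step to W3 to W8 only Car9 was higher, against 2.57% of all tested genes, and 0 were lower, against 28.9%.

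Between D1 to W2 and W3 to W8, Car2 and Car9 did not overlap and were higher, as for 4.9% of all tested genes, and Car8 and Car12 did not overlap and were lower, as for 46.5%. The median difference of the 8 genes was 0.85 and 0.36, beside -0.22 and -0.42 over all tested genes. Both steps use the same 5 libraries of D1 to W2, so they are not independent. The deposited FPKM of most genes fell with age: under median-ratio scaling the medians of all genes were 0.00 and -0.02, and 2875 genes were higher and 2535 lower in the first step, against 1820 and 5170 without it.

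A cubic curve over the order of the 15 time points, chosen after the data were seen, needs no age groups. By this fit 7 of the 8 tested genes changed with age at an adjusted p under 0.01 in limma, as did 76.1% of all tested genes, with Car2 at 1.76e-08, Car9 at 7.71e-08, Car13 at 3.50e-07, Car12 at 3.31e-06, Car4 at 5.59e-05, Car14 at 0.000665 and Car8 at 0.00219. Car3 had an adjusted p of 0.0643.

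At the oldest time point, W8, the order of levels was Car2 at 1083 FPKM, Car9 at 111, Car13 at 14.8, Car4 at 6.25, Car8 at 2.14, Car14 at 2.08, Car3 at 1.97, Car12 at 0.350 and Car1 listed at 0. Car8, Car14 and Car3 did not differ beyond their deposited bounds, and the other neighbours in this order did. At E12.5 the order was Car2 at 14.47 FPKM, Car14 at 4.39, Car13 at 3.09, Car4 at 2.93, Car12 at 2.63, Car9 at 2.08, Car3 at 1.38, Car8 at 1.13 and Car1 at 0.0515. There the gap between Car2 and the next gene was the only one outside the bounds of neighbours apart from that between Car8 and Car1.

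The genes whose course over the 15 time points was most like that of each carbonic anhydrase were taken from 11573 or 11574 tested genes that reached 5 FPKM, by Pearson's r on log2(FPKM + 1). For Car2 these were Slc9a2, a sodium/proton exchanger (r = 0.994), Pon2 and Cystm1, and for Car13 they were Ly6a (r = 0.985), Papss2, which makes the sulphate donor for sulphation, and Gjb1, a gap junction protein. With 783 and 704 genes over an r of 0.9, Car2 and Car13 followed a course that many genes shared. Car9 was nearest to Mogat1, a monoacylglycerol acyltransferase (r = 0.987), Adhfe1 and Pcca, a subunit of propionyl-CoA carboxylase.

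Car12 was nearest to Fzd10, a Wnt receptor (r = 0.980), Sptlc3, a subunit of serine palmitoyltransferase, and Tfap2c, a transcription factor of the AP-2 family, which like Car12 all peaked at E17.5. Car8 was nearest to the gel-forming mucin Muc5b (r = 0.924), Bpifb5 and H6pd. No gene passed an r of 0.9 with Car3, Car4 or Car14. Their nearest genes were Mgat4b (r = 0.809), Cybrd1 and Hexa for Car3, Hs3st3b1 (r = 0.883), Fam109a and Tmem161b for Car4, and the gut hormone Cck (r = 0.877), Fam43a and Cgnl1 for Car14. All these values rest on the same 15 libraries and are given as descriptions.

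**Figure D4:**
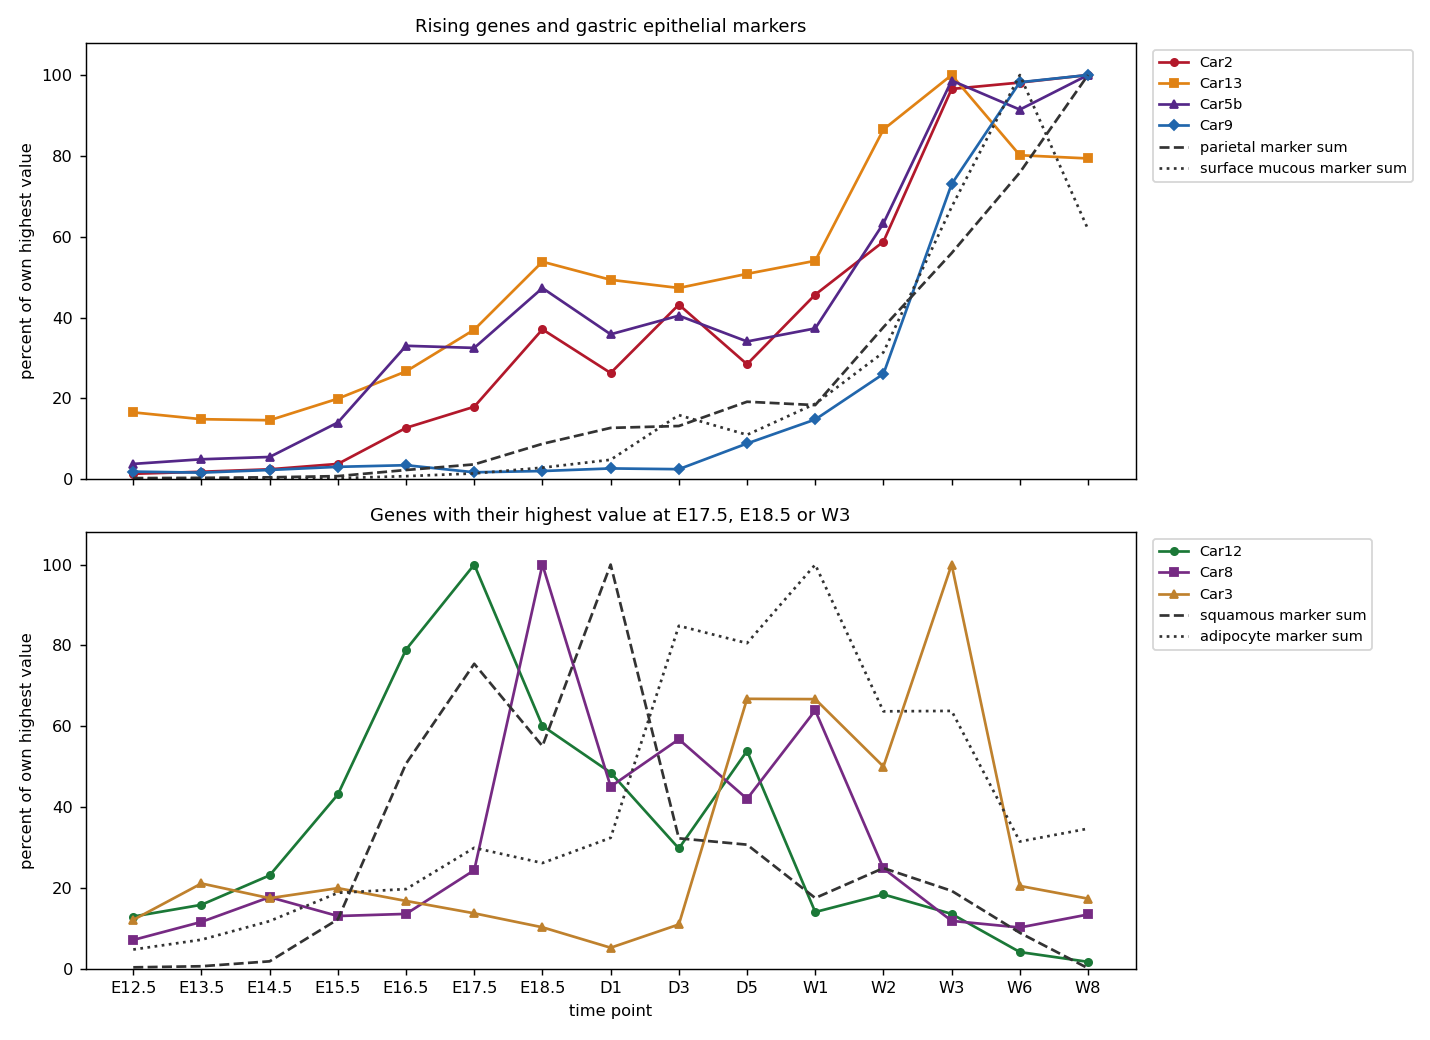
FPKM as a percent of each curve's own highest value (vertical axes) at the 15 time points (horizontal axis), for single genes (solid lines) and for summed marker lists (dashed and dotted lines). Car2, Car13 and Car5b had risen to 37.1%, 53.8% and 47.3% of their highest value by E18.5 while Car9 was at 2.02%, and Car12 and Car8 peaked at E17.5 and E18.5.

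Parietal and surface mucous marker sums were higher in each later age group, as were the means of Car2, Car9 and Car13. Within W3 to W8 the courses differed. The parietal sum went from 4055 to 7250 FPKM, Car2 was level as deposited, and Car13 went from 18.7 to 14.8 FPKM. Of the 9 parietal cell markers 8 were higher in the first step and 3 in the second, against 10.8% and 2.57% of all tested genes. Their sum ran from 19.2 to 635 FPKM in embryos, 920 to 2727 from D1 to W2 and 4055 to 7250 from W3 to W8. Of the 4 surface mucous markers 3 were higher in each step, against the same 10.8% and 2.57%. Their sum ran from 230 to 5196, 8744 to 57086 and 112467 to 181883 FPKM. No marker of these lists was absent from the tables. Forestomach squamous markers are given beside Car12. Of these, 8 of 8 were tested, and 2 (Lor and Ivl) were higher in the first step, against 10.8% of all tested genes. In the second 0 passed, against 28.9% lower and 2.57% higher. The sums were 52.3 to 10981 FPKM in embryos, 2548 to 14551 from D1 to W2 and 19.4 to 2806 from W3 to W8. The squamous sum was highest at D1, at 14551 FPKM, and Car12 at E17.5. The sum was 2806 FPKM at W3, 1295 at W6 and 19.4 at W8, so the oldest libraries differed widely in it. The part of cell composition in the carbonic anhydrase values was not tested.

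Transporters that carry the products of the reaction were described from fixed lists. Of 15 bicarbonate transporters 11 were tested. In the first step 3 were higher and 1 lower, against 10.8% and 30.6% of all tested genes. In the second 1 was higher and 1 lower, against 2.57% and 28.9%. The medians were -0.36 and -0.13. Slc4a2, the chloride/bicarbonate exchanger of the basolateral parietal cell membrane, was higher in both steps, by 0.73 and 1.38 (limma, adjusted p = 0.00300 and 0.000442), at 29.2 ± 3.13 (SD, n = 7), 50.3 ± 14.2 (SD, n = 5) and 133 ± 45.4 FPKM (SD, n = 3). Slc26a9, an anion transporter of gastric epithelium, rose by 2.31 in the first step (adjusted p = 0.00133), and Slc4a3, a related exchanger of excitable tissue, fell by 1.52 in the second (adjusted p = 0.00105).

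Of the 10 proton and lactate transport genes, all tested, 4 were higher and 1 lower in the first step, against 10.8% and 30.6% of all tested genes. In the second 2 were higher, against 2.57%. The medians were 0.45 and 0.44. The sodium/proton exchangers Slc9a4 and Slc9a2 rose by 2.86 and 2.14 in the first step (limma, adjusted p = 0.00286 and 0.00396), and the monocarboxylate transporter Slc16a7 rose by 1.53 and 1.24 in the 2 steps (adjusted p = 0.000679 and 0.00995).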

How the data were processed

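Whole stomachs of C57BL/6 mice were taken at 15 time points and 1 RNA library was sequenced from each. For every gene entry, the authors deposited FPKM and its lower and upper bound. Per the labels, the submitters' processing notes name Bowtie 0.12.2, FastQC and the build GRCm38.p2, the study's methods name HISAT2 and StringTie, and the tables have the layout of Cufflinks, so the tool behind the values is uncertain. The methods call the RNA source liver while the labels say stomach. Sequencing depth is not given. Relative depth was inferred from entries whose deposited bounds were those of 1 fragment under counting error. The median FPKM of such entries was between 0.0415 at W6 and 0.0679 at E16.5. This level depends on transcript length, so no counting floor is stated for single genes.

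The 46966 entries were summed by symbol, and the 16902 symbols that reached 1 FPKM in any library were analysed as log2(FPKM + 1), a scale that understates the change of low genes. Starts in the tables count from 0 (of 31901 symbols on the same chromosome as in RefSeq, 21344 had the same start after adding 1 and 355 without), so 1 was added. No pair of tables was identical. The embryonic group and the border at birth follow the age labels, while the border between W2 and W3 is that of the study's RNA phases, drawn from these same transcriptomes. limma 3.58.1 in R 4.3.3 fitted the 3 groups over all 15 libraries (F test and both steps). The p-values were adjusted after Benjamini and Hochberg over every tested gene, and calls were made under 0.01. Exact two-sided permutation tests of single genes (SciPy 1.17.1) had 792 splits for 7 against 5 libraries, with a smallest p of 0.00253, and 56 for 5 against 3, with a smallest p of 0.0357. Samples up to E17.5 were pools of embryos according to the study's reporting notes, which do not set RNA apart from protein samples. The limma p-values set a difference of group means against the spread between these libraries within groups, which includes change with age. No spread between replicates of 1 age is measured. On simulated data for the step around birth (16902 genes), 66 of 100 genes shifted by 1 on the log2 scale and 86 of 100 shifted by 2 were recovered, with 2 unchanged genes called. The shifted genes had a mean of at least 2 on this scale. Noise was drawn independently for each library, with no trend with age within a group. The rates therefore need not hold for lower genes or for libraries of ordered ages.

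The members and gene lists were chosen with earlier results of these data known. The genes named are the 16 carbonic anhydrase symbols, up to 3 genes of each list with the largest difference among those past the threshold, and the 3 genes most like each member in course, without predicted, microRNA and small nucleolar symbols; 2 of the 14 erythroid symbols (Epb42 and Ahsp) were not matched. The adjusted p-values of list genes are over all tested genes. Alternatives changed the pseudocount, the FPKM limit, the scaling, the use of duplicate entries, the groups, the prior variance or the test, or left out each library in turn.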

Additional observations from a re-analysis of the deposited data

Results flagged for a closer look

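Of 18 groups of members (9 genes in the 2 groups with more than 3 libraries), 4 held a library far from the others. Chance marks about 1 in 20 groups of independent replicates, a rate that need not hold here because the libraries of a group are ordered ages. Car4 was at 2.93 FPKM at E12.5, with the next embryonic library at 0.718, and at 4.60 FPKM at W2, with the next of D1 to W2 at 1.45. Car8 was at 15.9 FPKM at E18.5, with the next embryonic library at 3.88. Car13 was at 16.2 FPKM at W2, with the next of its group at 10.1. Each value comes from 1 library at the edge of its age group, and no replicate of these time points was analysed here.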

How the results depend on the processing

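No paired analysis was possible because each time point has 1 library and replicate numbers only name time points. Leaving out each library in turn gave 3 to 5 members differing across the age groups, 0 to 3 higher in the first step (0 without W2, 1 without E14.5 or W1), 0 lower, 1 higher in the second step, and 0 to 1 lower there (1, Car8, without E18.5). Over all genes it gave 10035 to 11966 differing, 1282 to 2254 higher and 3707 to 6045 lower in the first step, and 169 to 573 higher (169 without W6, 273 without W8) and 1359 to 5660 lower (1359 without W6, 3014 without W8) in the second. Without a filter on low FPKM, 1 member was higher in the first step. With the study's RNA phases, 1 member (Car8) was lower in the second. The cubic curve, chosen after the data were seen, called 7 members and 76.1% of all tested genes. Median-ratio scaling gave 2875 higher and 2535 lower genes in the first step and 2112 higher and 1305 lower in the second, and quantile normalization gave 1376 higher and 896 lower in the second, against 435 and 4877 as deposited. Car3 in the second step reversed to -0.22, -0.09 and -0.50 without D1, D3 and W3, and ranged from -0.50 to 0.53 when each library was left out, and Car14 reversed to 0.28 and 0.49 under median-ratio scaling and quantile normalization. The cause was not tested. The step of Car9 to W3 to W8 passed in all 23 settings. With 1 library per time point, no change between neighbouring ages can be tested, and low genes such as Car1 and Car4 are limited by depth.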

Other observations

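Among the 7 other carbonic anhydrase symbols, Car5b, a mitochondrial enzyme, was at 0.297 to 3.71 FPKM in embryos with a median of 1.10, at 2.81 at D1, 3.18 at D3, 2.67 at D5, 2.93 at W1 and 4.97 at W2, and at 7.74 at W3, 7.18 at W6 and 7.85 at W8. It differed across the age groups (limma F test, adjusted p = 0.000714), with single steps of 0.89 ± 0.31 and 1.02 ± 0.38 (SE; limma, adjusted p = 0.0226 and 0.0384), and its r with Car2 over the 15 time points was 0.973. The genes most like Car5b in course were Gsta1, a glutathione transferase (r = 0.987), Esrra, a nuclear receptor, and Slc35c1.

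Car11, a relative without catalytic activity, was at 3.23 to 9.12 FPKM in embryos (median 7.17) and at 2.83 at W3, 1.70 at W6 and 2.63 at W8, with an adjusted p of 0.00905 in the limma F test. This call was lost in 17 of 24 alternative settings (adjusted p between 0.0108 and 0.412), among them the omission of most single libraries (0.0509 without W6) and both other scalings. It was the second most abundant carbonic anhydrase symbol at E12.5, at 8.76 FPKM against 14.47 for Car2. Car15 had 2 entries of equal length whose values were summed, and lay between 1.19 and 3.26 FPKM (limma F test, adjusted p = 0.936). Car5a, Car6, Car7 and Car10 stayed under 1 FPKM in every library.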
